A study of Rattus norvegicus with 88 samples.

Results

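Infralimbic cortex (IL), a medial prefrontal area, lies close to the striatum, so a dissection of it can take in tissue from across the border. The genes described here were the 5 rows of the IL expression table given by Ensembl identifier for Drd1 (ENSRNOG00000023688), Drd2 (ENSRNOG00000008428), Adora2a (ENSRNOG00000001302), Penk (ENSRNOG00000008943) and Ppp1r1b (ENSRNOG00000028404), out of 17252 genes in the table. All 5 were present, and none was identical to another row. The genes are widely used striatal markers, and the rule that names them uses no measured value. Of the identifiers, 1 (Penk) could be checked against pairs of identifier and symbol in the tables of the study, where it matched. The other 4 symbols rest on the stated identifiers alone, since the reference annotation at hand carried no Ensembl identifiers.

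The spiny projection neurons that make up most of the striatum fall into a direct pathway class, which carries the dopamine D1 receptor, and an indirect pathway class, which carries the dopamine D2 receptor, an adenosine receptor (encoded by Adora2a) and the opioid peptide enkephalin. Both classes hold large amounts of DARPP-32, the phosphoprotein encoded by Ppp1r1b. These genes are not exclusive to the striatum, since cortex itself has D1 and D2 receptor neurons, enkephalin interneurons and DARPP-32 in deep-layer pyramidal cells.

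The libraries came from Heterogeneous Stock (HS) rats, an outbred population, that had received no behavioural or drug treatment and were housed in groups. Polyadenylated RNA of bilateral IL tissue, dissected by hand from frozen sections, was sequenced as 1 library per rat. The labels name 88 libraries, of which 7 were removed by the authors, and the 81 retained were from 40 females and 41 males. The reasons in the labels include expression outlier, genotype mismatch, low read count and too many zero counts. The removed libraries have no column in the table, so the values below describe rats kept after expression outliers had been taken out. There was no treated group, so the comparisons were between the rat batches named in the labels, between stretches of the table's columns, and between the sexes. Rat batches 2, 3, 4, 5 and 6 held 16, 25, 24, 1 and 15 retained rats. A rat is named below by a number within its batch that carries no further meaning.

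The columns of the table ran in 3 stretches, in each of which the column names rose in alphabetical order. The labels do not say what a stretch stands for. Stretch 1 held 22 rats (15 of batch 2 and 7 of batch 3), stretch 2 held 16 (1 of batch 2 and 15 of batch 3) and stretch 3 held 43 (3 of batch 3 and all rats of batches 4, 5 and 6). Batch and stretch can therefore be told apart almost only within batch 3. Estimated depth was 17.9 ± 3.77 M reads (M, mega; SD, n = 81), with a median of 17.4 M. One library stood apart at 5.96 M (rat 4 of batch 4), and the next lowest had 12.2 M. Mean depth was 17.5, 15.3 and 19.1 M in stretches 1, 2 and 3.

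Of the 5 genes, Drd2 had a reference promoter entry that ends at the annotated start of the gene. It is shown as an example of the regulatory sequence next to one of these genes, with no measurement of the promoter in these data. In RefSeq on GRCr8 the 250 bases upstream lie at chr8:58605153-58605402 on the plus strand, 5′ to 3′. Capitals mark matches to the GC box letters GGGCGG, or CCGCCC on the other strand.
Drd2 promoter: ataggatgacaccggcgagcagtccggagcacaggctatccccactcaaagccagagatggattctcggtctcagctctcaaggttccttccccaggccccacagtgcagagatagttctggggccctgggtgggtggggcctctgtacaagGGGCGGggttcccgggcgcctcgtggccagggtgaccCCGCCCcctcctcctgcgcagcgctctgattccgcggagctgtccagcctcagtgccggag
The window held 2 GC box matches, and 30.5% of 33469 RefSeq rat promoters of the same length held at least 1. Its GC content of 66% was at percentile 86.8 of all promoters. The letters of a TATA box (TATAAA, either strand), found in 12.9% of promoters, were not in this window. The entry for Drd1 lies inside the annotated gene and is not shown.

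All 5 genes were detected in every retained rat. The lowest value of any of them was 35 adjusted counts, in Adora2a. Values are given as the deposited log2(adjusted count + 1). Because gene length was not taken into account, levels are compared between rats and not between genes. In bulk tissue, fewer cells of a type and less RNA per cell cannot be told apart.

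Drd1, the receptor of the direct pathway class, was at 8.26 ± 0.24 (SD, n = 81), with a lowest value of 7.36, a median of 8.29 and a highest of 8.72. The lowest rat stood well under the others and the upper end was compact, with the highest rat at 1.36-fold the median. Drd2, the receptor of the indirect pathway class, was at 7.35 ± 0.33, from 6.51 through a median of 7.36 to 8.02. Adora2a, the adenosine receptor of the same class, was at 6.14 ± 0.33, from 5.17 through 6.17 to 6.82. In both receptors the highest rat was less than 1.6-fold above the median, at 1.58-fold for Drd2 and 1.57-fold for Adora2a.

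Penk, the enkephalin precursor, was at 10.46 ± 0.26, from 10.03 through 10.46 to 11.14. Ppp1r1b, the target of cAMP signalling downstream of both dopamine receptors, was at 10.34 ± 0.31, from 9.48 through 10.35 to 11.004. In adjusted counts, the lowest, median and highest rats had 1043, 1409 and 2258 for Penk and 711, 1306 and 2052 for Ppp1r1b. The highest rat was at 1.60-fold the median for Penk and 1.57-fold for Ppp1r1b, so no gene of the 5 had a retained rat at several times the median.

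The spread over rats was near the middle of that of all genes. The SDs of Drd1, Drd2, Adora2a, Penk and Ppp1r1b were at percentiles 43.7, 59.4, 59.8, 47.5 and 56.5 of all genes, and their median SD was 0.31 beside 0.27 over all genes. Among the 13048 genes with a mean log2 of at least 5, which include all 5, the median SD was lower, at 0.21. With rat batch, sex and stretch removed, the median SD was 0.23 for the 5 genes, 0.23 for all genes and 0.18 for that set. Rat batch, column stretch and sex together accounted for 54.1% of the variance of Ppp1r1b, 49.9% of that of Penk, 29.9% of that of Adora2a, 13.5% of that of Drd2 and 11.7% of that of Drd1. The median over all genes was 22.01%. Penk and Ppp1r1b thus followed the labels and the column order more than most genes, and Drd1 and Drd2 less than most.

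**Figure D1:**
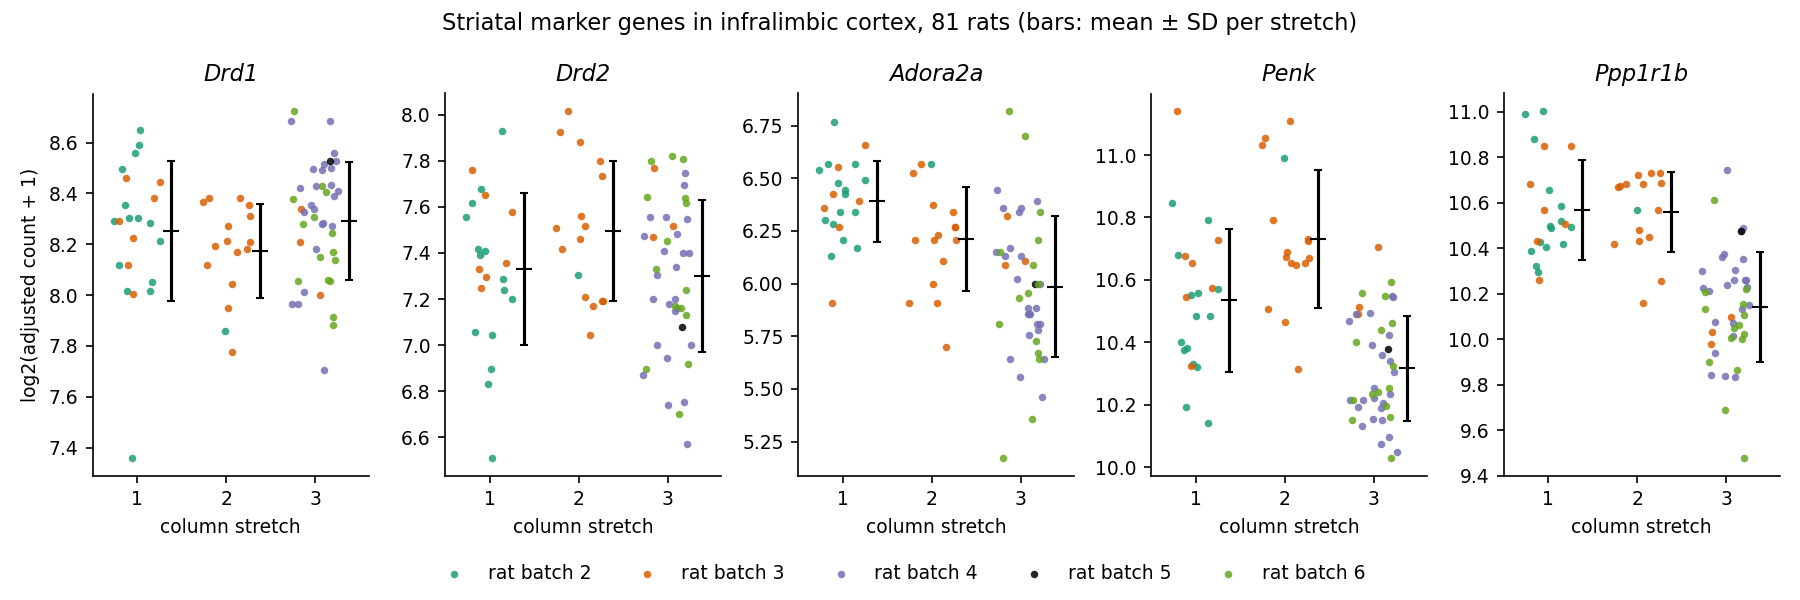
Level of each gene as log2(adjusted count + 1) in every rat (points, coloured by rat batch) by column stretch, with the mean ± SD of each stretch as bars; each panel has its own vertical scale. The means of Adora2a, Penk and Ppp1r1b are lower in stretch 3 than in the other stretches, at 5.99, 10.32 and 10.14 there. For all 5 genes the ranges of the stretches overlap.

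The next question was whether a few of the retained libraries carried all of the genes high together. Libraries that the authors removed as expression outliers could not be read for this. For each gene the 8 highest of the 81 rats were taken (9 for Drd1, through a tie). No rat was among them for all 5 genes, and none for 4. For 3 genes there were 2 such rats, for 2 genes 6, for 1 gene 23 and for none 50. With the 4 or the 16 highest rats in place of 8 the number of rats high in all 5 was again 0, and with the 16 highest 3 rats were high in 4 genes. After rat batch, sex and stretch had been removed, no rat was high in more than 2 genes. On the low side, 2 rats were among the 8 lowest for 3 genes and none for 4.

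The 2 rats high in 3 genes were high in the same trio, that of the indirect pathway class. Rat 8 of batch 3, a female in stretch 2, had the highest Drd2 of all (8.02), the fifth highest Adora2a (6.57) and the eighth highest Penk (10.79), while its Drd1 of 8.19 was at rank 53. Its Ppp1r1b, at 10.68, had rank 12. Rat 16 of batch 2, a male in stretch 1, had the second highest Drd2 (7.93), the same Adora2a value of 6.57, Penk at 10.79 with rank 7, Ppp1r1b at 10.52 with rank 22 and Drd1 at 8.29 with rank 41. In both rats Drd1 was at or below its median over the 81 rats.

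With a looser limit, 4 rats were above the median for all 5 genes, and 1 rat was among the 20 highest for all of them. That rat, number 1 of batch 3 (a male in stretch 1), was singled out after its values were seen. Its values were 8.44 for Drd1, 7.58 for Drd2, 6.66 for Adora2a, 10.73 for Penk and 10.85 for Ppp1r1b, which are 0.16, 0.22, 0.49, 0.27 and 0.50 above the medians on the log2 scale. Its depth was 21.1 M reads.

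Other genes of striatal projection neurons were then read in these 3 rats. Of a list of 32 such genes, 8 could be matched by symbol: Pde10a, Pdyn, Gng7, Syndig1l, Gpr52, Gpr149, Ptpn5 and Lrrc10b. None of the 8 was at 0 in any rat. Rat 16 of batch 2 had none of them among its 8 highest rats and 3 among the 40 highest, at a median rank of 70 of 81. Rat 8 of batch 3 had 1 among the 8 highest and no other among the 40 highest, at a median rank of 67.5. In rat 1 of batch 3, none was among the 8 highest and 2 were among the 40 highest, at a median rank of 48. The 2 rats among the 8 highest for all of the indirect pathway trio thus had most of these 8 genes in the lower part of the range. The genes were not ranked in rats other than these 3, and the unmatched genes of the list could not be read.

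**Figure D2:**
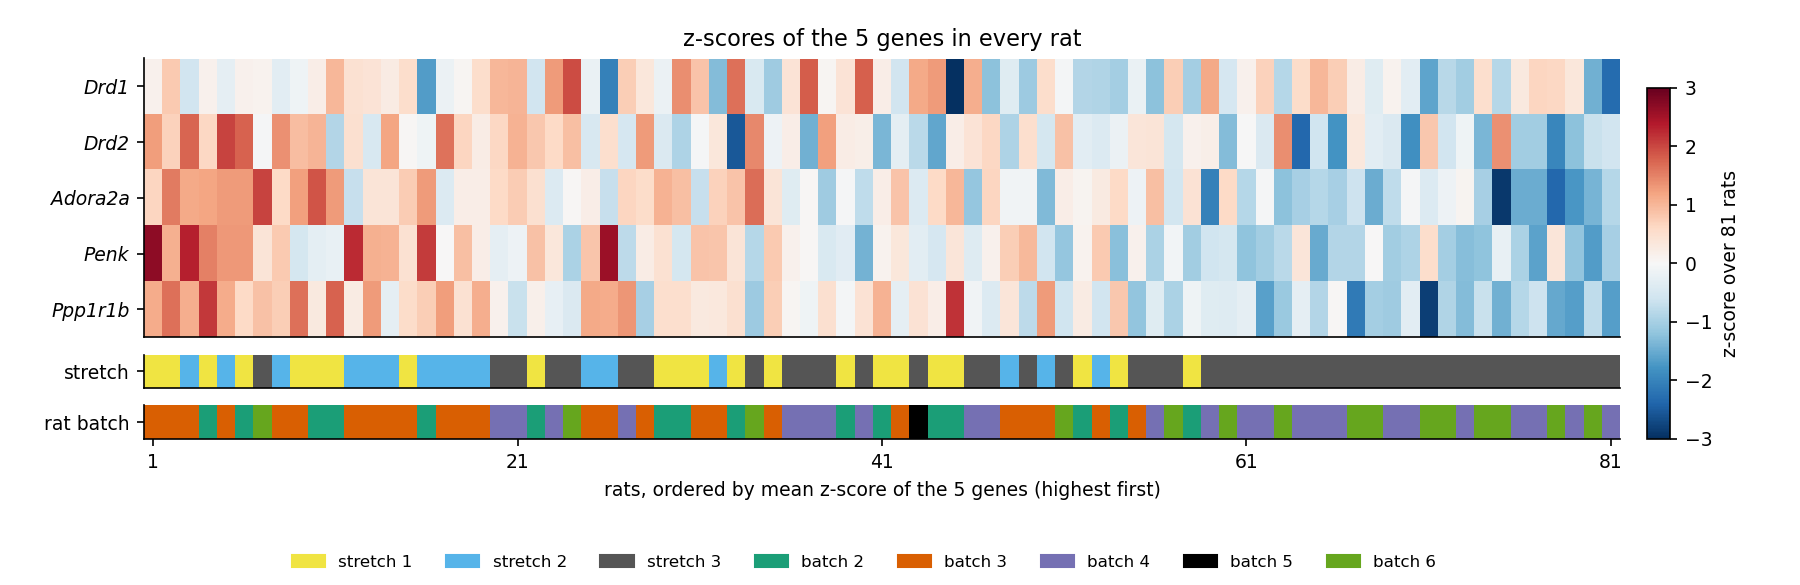
Values of the 5 genes in each of 81 rats as z-scores (SDs from the mean over rats, red above and blue below), with rats ordered by their mean z-score, and the column stretch and rat batch of each rat below. No column is deep red in all 5 rows, and the right end of the order, where the mean is low, holds rats of stretch 3.

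The genes did not vary as a single group. Of the 10 pairs, 5 had a correlation over the 81 rats at an adjusted p under 0.05 (permutation tests with 100000 resamples, Benjamini-Hochberg over the 10 pairs, two-sided), and none of these 5 included Drd1. The highest was Adora2a with Ppp1r1b, at Pearson r = 0.51 (p = 1e-05, the smallest these resamples can give; adjusted p = 0.0001) and Spearman rho = 0.52. Penk with Ppp1r1b followed at r = 0.45 (adjusted p = 0.0002) and rho = 0.48. Within the indirect pathway trio, r was 0.35 for Adora2a with Penk (adjusted p = 0.00517, rho = 0.41), 0.32 for Drd2 with Penk (adjusted p = 0.00837, rho = 0.34) and 0.27 for Drd2 with Adora2a (adjusted p = 0.0311, rho = 0.30). Each of the 5 was also called by Spearman's rho and without the 2 rats farthest from the median of the first gene.

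The receptors of the opposite classes went the other way. Drd1 with Drd2 had r = -0.22 (permutation p = 0.0455, adjusted p = 0.0758), rho = -0.24 (adjusted p = 0.0477), and r = -0.27 without the 2 rats farthest from the Drd1 median (adjusted p = 0.0294). The pair was therefore called by rank and without those rats, and not by the pooled Pearson r. Nor was it called with median centring (permutation test, adjusted p = 0.091) or quantile normalization (adjusted p = 0.0777). In residuals after rat batch, sex and stretch r was -0.16 (permutation test, adjusted p = 0.267). Within stretches 1, 2 and 3 it was -0.32, -0.005 and -0.16. Drd1 had r of -0.10 with Adora2a, -0.18 with Penk and 0.04 with Ppp1r1b, none of which passed the test.

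The pooled correlations did not hold in full within the stretches. After rat batch, sex and stretch had been removed, 0 of the 10 pairs were called. Adora2a with Ppp1r1b was then at r = 0.31 (permutation test, adjusted p = 0.0512) and Drd2 with Adora2a at r = 0.28 (adjusted p = 0.0592). In the 22 rats of stretch 1, the 16 of stretch 2 and the 43 of stretch 3, Adora2a with Ppp1r1b gave r of 0.44, -0.09 and 0.31, and Penk with Ppp1r1b gave 0.28, -0.08 and 0.02. All pairs of the indirect pathway trio kept a positive r in each stretch. Drd2 with Adora2a was at 0.26, 0.36 and 0.26, Drd2 with Penk at 0.40, 0.23 and 0.17, and Adora2a with Penk at 0.04, 0.33 and 0.17. Within rat batch 6, r was -0.08 for Drd2 with Penk and -0.03 for Adora2a with Penk. The number of pairs called was 0, 0 and 1 in the 3 stretches and 0 within each of rat batches 2, 3, 4 and 6. The 1 call was Drd1 with Ppp1r1b in stretch 3, at r = 0.45 (adjusted p = 0.0255) and rho = 0.47, a pair whose r was -0.21 in stretch 1 and 0.10 in stretch 2.

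**Figure D3:**
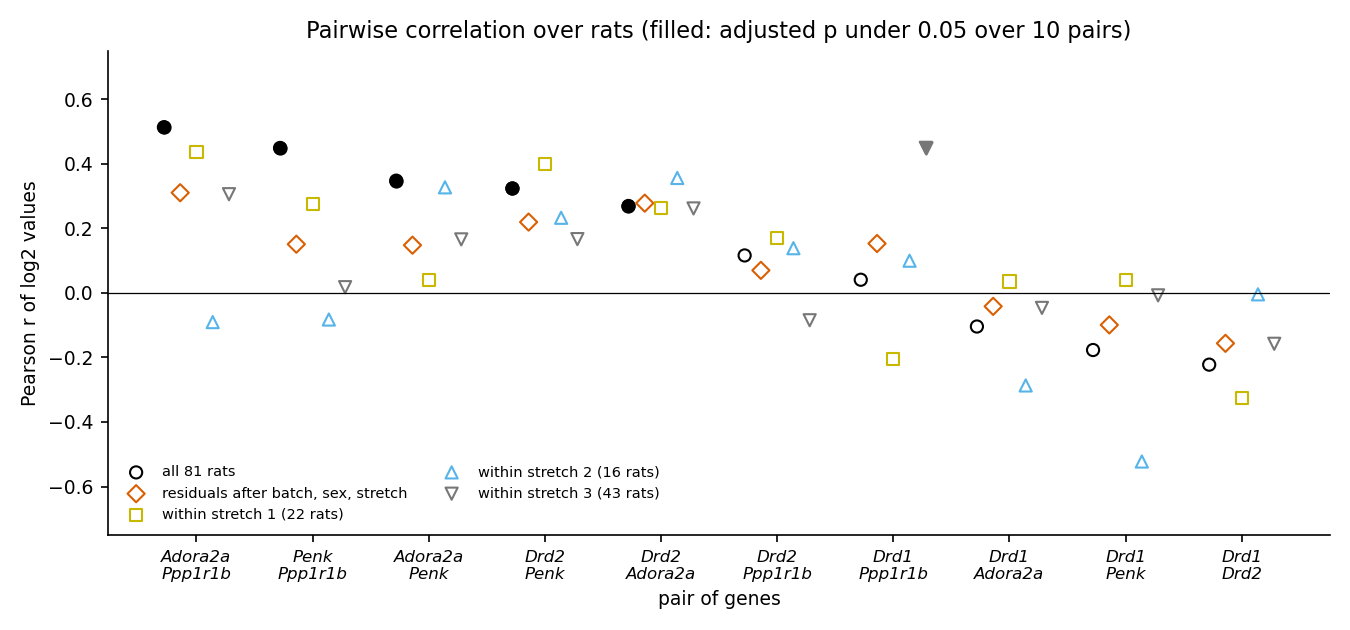
Pearson r of each pair of genes over all 81 rats (circles), in residuals after batch, sex and stretch (diamonds) and within each column stretch (squares and triangles), with filled symbols for an adjusted p under 0.05 over the 10 pairs. Of the 81-rat values 5 are filled, none of the residual values is, and the values within stretches scatter on both sides of 0 for the pairs with Ppp1r1b.

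For scale, each correlation was placed among those of the same gene with every other gene of the table, as a description. Ppp1r1b was a close partner of Adora2a, since 1.25% of genes had an r with Adora2a at least as high. Adora2a ranked lower among the partners of Ppp1r1b, at 8.98%. Penk was among the top 1.45% of partners of Drd2, whereas 18.7% of genes followed Penk at least as closely as Drd2 did. For Drd1 with Drd2, 82.0% of genes had an r with Drd1 at least as high, and 92.3% an r with Drd2 at least as high.

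Between rat batches, 4 of the 5 genes differed (limma F test over the 80 rats of batches 2, 3, 4 and 6, adjusted p under 0.05), beside 57.6% of all genes tested. Adora2a was highest in batch 2, at 6.41 ± 0.17 (SD, n = 16), followed by 6.24 ± 0.23 in batch 3 (n = 25) and by 5.97 ± 0.28 in batch 4 (n = 24) and 5.97 ± 0.45 in batch 6 (n = 15), with an adjusted p of 6.72e-05. Penk was at 10.51 ± 0.23, 10.68 ± 0.22, 10.28 ± 0.15 and 10.32 ± 0.17 in batches 2, 3, 4 and 6 (limma, adjusted p = 1.61e-09). Ppp1r1b was at 10.56 ± 0.22, 10.50 ± 0.25, 10.21 ± 0.22 and 10.03 ± 0.25 in the same order (limma, adjusted p = 1.19e-08).

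All of these 3 genes were thus higher in batches 2 and 3 than in batches 4 and 6, though the ranges of the batches overlapped. Drd2 followed a weaker pattern, at 7.27 ± 0.35, 7.504 ± 0.26, 7.24 ± 0.31 and 7.35 ± 0.36 (limma, adjusted p = 0.0330). Its call was lost without batch 3 (adjusted p = 0.592) and without batch 4 (adjusted p = 0.0918). Drd1 did not pass the test, at 8.22 ± 0.32, 8.22 ± 0.17, 8.34 ± 0.24 and 8.21 ± 0.22 (limma, adjusted p = 0.256).

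With the column stretch added to the model, 0 of the 5 genes differed between batches, beside 2.76% of all genes, with adjusted p from 0.290 to 0.826. Nor did any of them differ between batches 2 and 3 within stretch 1, where no gene of the table passed the limma test (784 had an unadjusted p under 0.05), or between batches 4 and 6 within stretch 3, where 3.46% of all genes did. Most rats of batches 2 and 3, where Adora2a, Penk and Ppp1r1b were higher, lay in stretches 1 and 2, and all rats of batches 4 and 6 in stretch 3. For these genes batch and stretch cannot be told apart, except in batch 3. In stretches 1, 2 and 3 of batch 3 (n = 7, 15 and 3), Penk was at 10.66 ± 0.25, 10.71 ± 0.22 and 10.57 ± 0.12 (SD). Its means in batches 4 and 6 were 10.28 and 10.32. Adora2a was at 6.37 ± 0.24, 6.19 ± 0.23 and 6.17 ± 0.13 in the same stretches of batch 3.

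Between stretches, with rat batch and sex in the model, 1 of the 5 genes differed, beside 16.8% of all genes (limma F test). It was Ppp1r1b, with an adjusted p of 0.00695. Its difference was -0.56 ± 0.14 (log2, SE) for stretch 3 against stretch 1 (limma, adjusted p = 0.0166) and -0.54 ± 0.13 against stretch 2 (adjusted p = 0.00763), while stretches 2 and 1 were within -0.03 ± 0.09 of each other. Lower values in stretch 3 were called in 1.62% of all genes against stretch 1 and in 3.66% against stretch 2. The other genes had adjusted p of 0.602 for Drd1, 0.928 for Drd2, 0.731 for Adora2a and 0.343 for Penk.

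For Penk the difference between stretches was smaller with batch in the model. Its mean was 10.53 ± 0.23 in stretch 1, 10.73 ± 0.22 in stretch 2 and 10.32 ± 0.17 in stretch 3, whereas in the model stretch 3 was -0.02 ± 0.13 from stretch 1 and -0.15 ± 0.12 from stretch 2 (log2, SE). Adora2a had -0.15 ± 0.20 and -0.03 ± 0.19 for the same differences, beside stretch means of 6.39 ± 0.19, 6.21 ± 0.25 and 5.99 ± 0.34. Of the 8 highest rats for each gene, 0 for Penk, 1 for Ppp1r1b, 2 for Adora2a and 3 for Drd2 lay in stretch 3, which holds 43 of the 81 rats. For Drd1 it was 6 of 9.

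Batch 3 has rats in all 3 stretches and gives the comparison within a batch. Of the 5 genes Ppp1r1b differed there (limma F test over 25 rats, adjusted p = 0.00429), beside 16.9% of all genes. It was at 10.59 ± 0.22 in stretch 1 (n = 7, from 10.26 to 10.85), 10.56 ± 0.18 in stretch 2 (n = 15, from 10.16 to 10.73) and 10.04 ± 0.06 in stretch 3 (n = 3, from 9.98 to 10.10). The 3 rats in stretch 3 were below every other rat of the batch. The difference was -0.57 ± 0.12 against stretch 1 (limma, adjusted p = 0.00955) and -0.53 ± 0.11 against stretch 2 (limma, adjusted p = 0.00409), where 2.25% and 4.57% of all genes were called lower in stretch 3.

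The result rests on those 3 rats. Left out in turn, they gave adjusted p between 0.0137 and 0.0294 within batch 3 (limma). With rat batch in the model, the adjusted p was 0.0172 without rat 6 of batch 3, 0.0457 without rat 20, and 0.0544 without rat 16, where the call was lost. Within batch 3 the other genes had adjusted p of 0.702 for Drd1, 0.786 for Drd2, 0.390 for Adora2a and 0.676 for Penk.

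**Figure D4:**
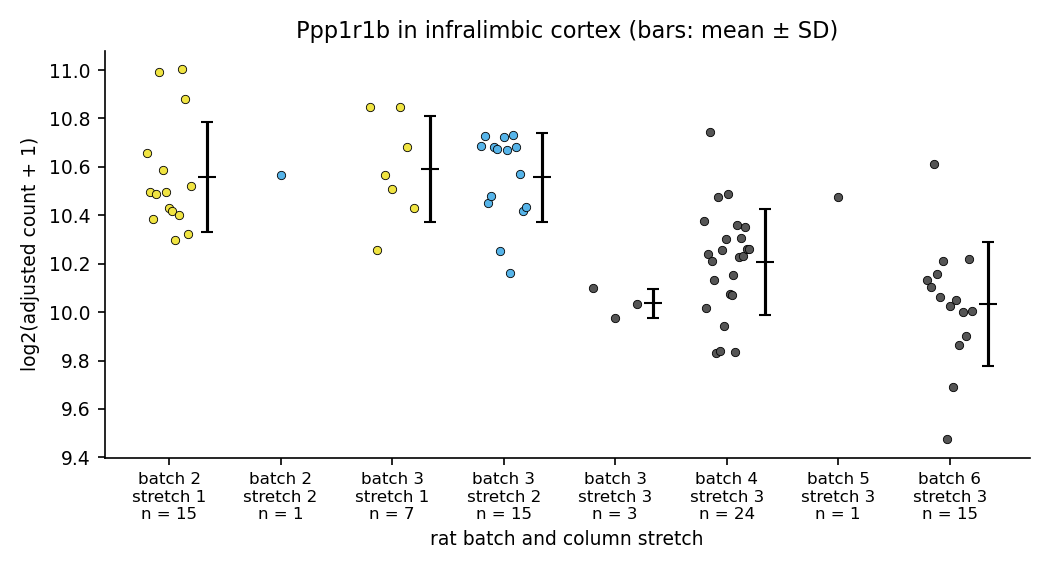
Ppp1r1b as log2(adjusted count + 1) in each rat, by rat batch and column stretch, with mean ± SD where a set has more than 1 rat (yellow, stretch 1; blue, stretch 2; grey, stretch 3). The 3 rats of batch 3 in stretch 3 lie between 9.98 and 10.10, below the other rats of batch 3 and within the range of batches 4 and 6.

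Other measures are given beside the low Ppp1r1b of stretch 3. Estimated depth had r = -0.28 with Ppp1r1b over the 81 rats (permutation p = 0.0107, adjusted p = 0.0537 over 5 genes), rho = -0.28, and r of 0.29, 0.00 and -0.25 within stretches 1, 2 and 3. With depth in the model the stretch call remained (limma, adjusted p = 0.0125 given batch and 0.0165 within batch 3). The 2 matched genes of 9 listed for oligodendrocytes, Mal and Olig2, summed to between 875 and 1128 adjusted counts in the 3 rats of batch 3 in stretch 3, against 1201 to 1903 in stretch 1 and 1088 to 2284 in stretch 2 of that batch. For all rats the ranges of that sum were 999 to 4073, 1088 to 2284 and 765 to 2581 in stretches 1, 2 and 3. Neither gene passed the limma F test between stretches given batch, with adjusted p of 0.170 for Mal and 0.103 for Olig2. Within batch 3 the adjusted p was 0.0914 and 0.0569 (limma). Neither gene was at 0 in any rat, and their part in the result was not tested.

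Of 13 listed genes of cortical excitatory neurons 5 were matched, none of which was at 0 in any rat, and 4 of them (Calb1, Etv1, Syt6 and Rprm) differed between stretches given batch (limma, adjusted p from 0.00204 to 0.0320), beside 16.8% of all genes. Syt6 and Rprm, both known from layer 6 neurons, had r of 0.51 and 0.70 with Ppp1r1b over the 81 rats. Calb1 and Etv1 went the other way, at -0.49 and -0.56, and Neurod6, the fifth matched gene, was at -0.01. Syt6 was lower in stretch 3 than in stretch 1 by a log2 difference of -0.73 ± 0.21 (SE; limma, adjusted p = 0.0394). The summed level of the 5 genes ranged from 7468 to 9283, 6930 to 9009 and 7040 to 9846 adjusted counts in stretches 1, 2 and 3, so the list as a whole overlapped between them. Its part in the Ppp1r1b result was not tested.

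Both sexes were present in each of batches 2, 3, 4 and 6. None of the 5 genes differed between males and females with rat batch in the model (limma), beside 0.197% of all genes, and none had an unadjusted p under 0.05. Male minus female differences were -0.07 ± 0.05 for Drd1, 0.07 ± 0.07 for Drd2, -0.01 ± 0.07 for Adora2a, -0.08 ± 0.04 for Penk and 0.03 ± 0.05 for Ppp1r1b (log2, SE). Penk came closest, with an unadjusted p of 0.0536 and an adjusted p of 0.648, from 10.49 ± 0.29 in 40 females and 10.42 ± 0.21 in 41 males. No gene of the table had a sex difference that varied between batches (limma interaction, 531 genes at an unadjusted p under 0.05), and the 5 genes had adjusted p of 0.996.

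Whether other striatal genes followed the 5 over rats was asked for the 8 matched genes of the striatal list, giving 40 pairs. Of these, 8 were called (permutation tests, Benjamini-Hochberg over the 40), 3 of them positive and 5 negative. Positive calls were Syndig1l with Ppp1r1b at r = 0.53 (rho = 0.56, adjusted p = 0.0002), Syndig1l with Adora2a at r = 0.35 (rho = 0.31, adjusted p = 0.0103) and Pdyn with Drd1 at r = 0.30 (rho = 0.35, adjusted p = 0.0321). Pdyn encodes prodynorphin, an opioid precursor of direct pathway neurons.

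The negative calls were led by Pde10a, a phosphodiesterase that is abundant in spiny projection neurons. It had r = -0.65 with Ppp1r1b (rho = -0.70, adjusted p = 0.0002), -0.43 with Penk (rho = -0.51, adjusted p = 0.000933) and -0.41 with Adora2a (rho = -0.48, adjusted p = 0.0018). Within stretches 1, 2 and 3 its r with Ppp1r1b was -0.53, -0.23 and -0.34, and in residuals -0.40 (permutation test, adjusted p = 0.00333), so the sign was the same throughout. The other negative r of Pde10a did not hold in this way, with residual r of -0.06 for Penk (permutation test, adjusted p = 0.812) and -0.15 for Adora2a (adjusted p = 0.393), and with r of 0.02 for Penk in stretch 3 and 0.03 for Adora2a in stretch 2. Gpr52 and Ptpn5 had r of -0.37 and -0.31 with Drd1 (rho = -0.38 and -0.29, adjusted p = 0.00592 and 0.0308), with residual r of -0.38 and -0.30. Without the 2 rats farthest from the median of the listed gene, r was -0.62 for Pde10a with Ppp1r1b and 0.60 for Syndig1l with Ppp1r1b.

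Drd2 had no called partner among the 8 genes, with r from -0.23 to 0.08. In residuals 10 of the 40 pairs were called, among them Syndig1l with Ppp1r1b at r = 0.54 (adjusted p = 0.0004) and Pdyn with Drd1 at r = 0.28 (adjusted p = 0.0433). The calls were of both signs. Gpr52 with Ppp1r1b had a residual r of -0.41 (permutation test, adjusted p = 0.0032). The negative residual r of Pde10a with Ppp1r1b, and of Gpr52 and Ptpn5 with Drd1, were also called, and the remaining calls were positive. Syndig1l with Adora2a was not called in residuals, at r = 0.26 (permutation test, adjusted p = 0.0698), and had an r of -0.01 within stretch 1. Pdyn and Gng7, the latter a G protein subunit that couples striatal D1 and adenosine receptors to adenylyl cyclase, both had a residual r of 0.34 with Ppp1r1b (adjusted p = 0.0141). The median r of the 8 genes was 0.02 with Drd1, 0.02 with Drd2, -0.16 with Adora2a, -0.01 with Penk and -0.12 with Ppp1r1b. The medians over all genes of the table lay between -0.02 and 0.00.

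**Figure D5:**
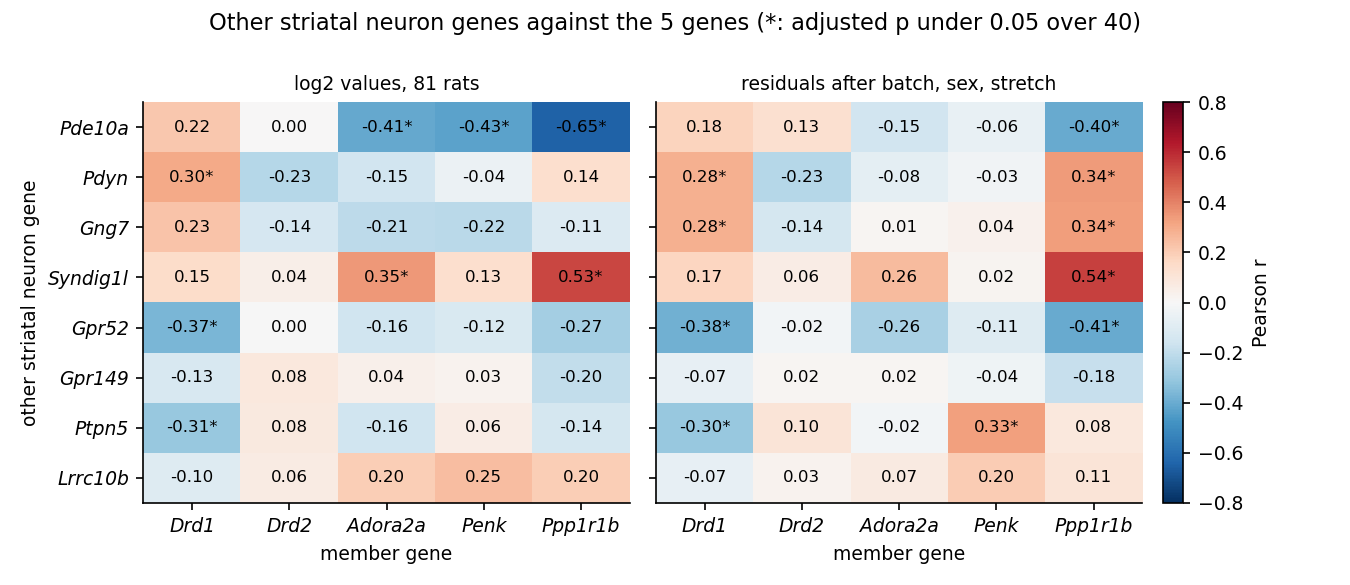
Pearson r of 8 other striatal neuron genes (rows) with each of the 5 genes (columns) over 81 rats, for the log2 values at left and for residuals after rat batch, sex and stretch at right; asterisks mark an adjusted p under 0.05 over 40 pairs. Both colours occur in most columns, with Syndig1l at 0.53 and Pde10a at -0.65 against Ppp1r1b.

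By batch, 4 of the 8 striatal genes differed (Pde10a, Gng7, Gpr149 and Ptpn5), beside the 57.6% of all genes. Between stretches given batch 1 differed (Ptpn5, limma adjusted p = 0.0341), beside 16.8% of all genes, and between the sexes none. The summed level of the 8 genes ranged from 5865 to 7329, 5936 to 7713 and 6143 to 8244 adjusted counts in stretches 1, 2 and 3, with medians of 6512, 6652 and 7205. Ptpn5 weighs most in this sum, at a mean log2 of 11.96, followed by Gng7 at 10.45, while Syndig1l has the lowest mean at 5.25. Over all rats the median of the sum was highest in stretch 3, where the means of Adora2a, Penk and Ppp1r1b were lowest. Within batch 3 it was not, with medians of 6460, 6645 and 6479 in stretches 1, 2 and 3.

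The genes whose values were most like those of each of the 5 were found by Pearson r over the 81 rats. These are descriptions of the highest values among all genes, without a test. Drd1 was matched most closely by genes without a symbol here, at r = 0.61 for the first, and after batch, sex and stretch Ntsr1, a neurotensin receptor gene, was among the first 3 with a residual r of 0.62. Drd2 was closest to a gene without a symbol here, at r = 0.56. It had r = 0.49 with Prkcz, an atypical protein kinase C, and 0.44 with Ap3b2, a neuronal adaptor subunit. Adora2a was also closest to genes without a symbol, at r = 0.62 for the first. Its r with Trim8 was 0.61, with a residual r of 0.36. Penk had r = 0.75 with its closest gene, ENSRNOG00000002693, and a residual r of 0.57 with Nptx2, a neuronal pentraxin. Ppp1r1b had the closest match of all, ENSRNOG00000013783 at r = 0.88 with a residual r of 0.76, and Nbl1, a BMP antagonist, at 0.83 with a residual r of 0.74. No gene was among the first 3 for more than 1 of the 5. The mean z-score of the 5 genes had r = 0.76 with ENSRNOG00000013783, 0.69 with Mapk8ip1, a scaffold of the JNK pathway, and 0.68 with Trim8 at the upper end, and -0.67 with Zfp40 at the lower.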

How the data were processed

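IL tissue of 81 retained rats was measured by RNA-Seq. Per the paper's methods and the labels, the authors trimmed reads with cutadapt, estimated gene counts with RSEM, adjusted them by upper quartile with DESeq2 and deposited log2 values of the adjusted count plus 1. The build in the submitters' notes is Rnor_6.0, and tool versions are not given in the sources used here. Turned back from log2, 100.0% of values under 100 were whole (tolerance 0.01). Depth, which is the adjusted total divided by the counts per read estimated from which low whole numbers occur, was 5.96 to 31.8 M reads. Because values are rounded and adjusted, no count model was used. Models were limma 3.58.1 in R 4.3.3, fitted to all 17252 genes with an intensity trend and Benjamini-Hochberg adjustment over all of them, called at 0.05. Batch 5, with 1 rat, was left out of fits between batches and stretches. Correlations used permutation tests with 100000 resamples in numpy 2.4.6, with ranks and the adjustment of p from scipy 1.17.1. Each library was from a separate rat. The study's methods say that related rats were avoided in the selection, and its text that some pairs still appeared closely related, which the models here do not take into account.

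The genes and the lists of other cell types and pathways were chosen with earlier results of these data known. Listed genes were matched through 3329 pairs of identifier and symbol from the study's tables, which are held only in part, so most lists are incomplete. From each list, genes were named by their r with the mean z-score of the 5 genes, and others as examples after their values were seen. Likeness was the highest Pearson r. Alternatives were another pseudocount, a filter on low values, other scalings, left-out batches or libraries, and added covariates. The fits were tested on simulated data. A shift of 2 SD in stretch 3 was recovered in 15% of the shifted genes given batch and in 2.5% within batch 3. For a shift of 4 SD these shares were 98.5% and 94.5%. A shift of 2 SD between sexes or in 1 batch was recovered in 100%. Genes not called between stretches may therefore still differ by 2 SD.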

Additional observations from a re-analysis of the deposited data

How the results depend on the processing

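The number of the 5 genes differing between batches, 4 of 5, kept its value or stayed within 1.5 times it with a pseudocount of 10, a filter at a mean log2 of 5, median centring, quantile normalization, no intensity trend, depth as a covariate, or without the shallowest library or a batch. It was 0 with column stretch added, 0 within stretch 1 and 0 within stretch 3. The number differing between stretches given batch was 1 in every alternative but one, and without each rat of batch 3 in stretch 3 in turn, an alternative added after seeing the data, it ran from 0 to 1. Within batch 3 it was 1 in each alternative, and the library of lowest depth is not in that batch, so that setting was not run there. No gene of the 5 was called between sexes in any alternative. The sign of Adora2a turned, to 0.0218 without batch 4 and 0.0068 without batch 6 (log2, male minus female), from -0.01. The number of correlated pairs, 5, became 0 in residuals, 0 in stretch 1, 0 in stretch 2 and 1 in stretch 3, with r turning to -0.0906 for Adora2a with Ppp1r1b and -0.0826 for Penk with Ppp1r1b in stretch 2. Fewer rats enter within a stretch, and the cause was otherwise not tested. Rats with at least 3 genes among the highest numbered 2, and 0, 8, 0 and 1 with the 4 highest, the 16 highest, residuals and quantile normalization. No paired analysis was possible because replicate numbers are only names, and in the IL table no animal contributed more than a single library. Counting error weighs most on Adora2a, whose lowest value was 35 adjusted counts.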

Other observations

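Gnas, the stimulatory G protein subunit that couples D1 and adenosine receptors to adenylyl cyclase in many cells, had the highest r with the mean z-score of the 5 genes among the listed dopamine and cAMP signalling partners, at 0.60 over 81 rats. The other matched genes had r of 0.26 (Arrb2, an arrestin), -0.03 (Ppp3ca), -0.37 (Ppp1cb) and -0.44 (Pde10a), and the median of the list was -0.03. For Gnas, r was 0.64 with Ppp1r1b, 0.61 with Penk and 0.49 with Adora2a, but -0.32 with Drd1. Of 25 genes in that list 5 were matched, of which 4 differed between batches (Gnas, Ppp1cb, Ppp3ca and Pde10a) and 2 between stretches given batch (Gnas and Ppp1cb, a catalytic subunit of the phosphatase that DARPP-32 inhibits), beside 57.6% and 16.8% of all genes.

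Of 10 listed opioid genes 4 were matched. Oprd1, the delta opioid receptor at which enkephalin acts, had r = 0.30 with the mean z-score and 0.16 with Penk, and Oprd1 and Oprl1 differed between batches (limma, adjusted p = 0.0291 and 0.0426), which is 2 of 4 beside 57.6% of all genes. Neither passed the test between stretches given batch (limma, adjusted p = 0.380 and 0.651).

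Among genes of other cell types, Olig2 and Mal of oligodendrocytes had r of 0.45 and 0.35 with the mean z-score, and C1qa, the only matched microglia gene of 4 listed, had 0.43. The 5 matched of 9 septal and cholinergic genes had a median r of 0.03, and the 2 matched of 7 GABA interneuron genes had 0.01. No listed choroid plexus, ependymal or astrocyte gene was matched. The medians can be read beside -0.02, the median of all genes, and the r values were not tested.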
